A study of Homo sapiens with 6 samples.

Results

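Immediate early genes are the first genes that a cell transcribes when a growth factor, a cytokine or a stress reaches it, and they need no new protein to be switched on. Many of them respond to the ERK branch of the MAP kinase (MAPK) pathway, in which RAS, RAF and MEK pass a signal from surface receptors to ERK, and ERK activates ETS-type partners of the serum response factor SRF at promoters. Their products are largely transcription factors of the AP-1, EGR and KLF families. A second set, the dual-specificity phosphatases (DUSP) and the Sprouty and SPRED proteins, damps the pathway that induced it, so its transcript levels are widely read as a gauge of lasting ERK activity. A total of 37 such genes, named as a list, were examined in an ovarian carcinoma line. Of these, 36 had a probe on the array, among 18852 genes with a probe in all. EGR2 was not analysed here. The 36 genes carried 55 probes, and 31 of the genes were above background on at least 3 of the 6 arrays.

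The cells were IGROV-1, a long-established line from a human ovarian carcinoma. They were grown for 24 h in culture medium and mouse ascites at equal volumes. The ascites came from mice bearing IGROV-1 tumours in the peritoneum, which had been given either saline or the CpG oligodeoxynucleotide ODN1826 at 20 µg per mouse, a ligand of Toll-like receptor 9. Each group, called here saline ascites and CpG ascites, had 3 samples, each hybridised to its own 1-colour Illumina bead array. Both groups thus share the cell line, the exposure to tumour ascites and ascites taken 24 h after the last injection, and no sample without ascites was among them. The labels state 3 mice per group and doses given once or on consecutive days, but not which schedule or which animals a sample came from. For this reason a p-value here reflects the variation among these 6 samples, some or all of which may be technical. Levels are given as log2 of the background-corrected, quantile-normalised intensity, a difference of 1 being a doubling. Levels of different probes are not compared, since each probe has its own response.

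The array of CpG ascites replicate 1 stood away from the rest, with a Pearson correlation across probes of 0.948 to 0.958 with the other 5, against 0.978 to 0.992 among the others. Counts are therefore also given without it. Mean intensity ran from 587 to 788 per array, and 13303 to 13835 probes per array were above background at a detection p-value under 0.01. Of the markers fixed for a check of the cells, EPCAM, KRT19, PAX8 and FOLR1 were above background on all 6 arrays, while KRT8, MUC16 and WT1 were on none. KRT18 was above background on 5 arrays, CDH1 on the 3 CpG arrays and no saline array, and MSLN on 2 CpG arrays and no saline array. Sums over the 5 epithelial markers took the brightest probe of each, on the linear scale and not in log2. They were 14100 to 15700 in saline ascites and 15600 to 17600 in CpG ascites, and their part in the results was not tested. None of the 4 fibroblast markers and, of the 5 leukocyte markers, neither PTPRC, CD14 nor CD3E was above background on any array. LYZ was above background on 1 saline array, and CD68, which is not restricted to leukocytes, on all 6. The same linear sum over the 5 leukocyte markers was 3030 to 3340 in saline ascites and 2930 to 3510 in CpG ascites.

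The 2 groups of arrays did not overlap in 7 of the 31 genes (22.6%), beside 20.4% of all genes. The promoters of 5 of the 7 are shown because their first-listed window holds a match to a motif searched. A window runs from 250 bases before to 50 after the annotated start. The windows of FOSB and PHLDA1, which had the largest negative changes of the 7, hold no match to any motif searched and are not shown. Sequences are RefSeq windows of GRCh38.p14, written 5′ to 3′ along the gene, and capitals mark a motif match. EGR1 has a pair of CArG boxes, the site of SRF, beginning 105 and 83 bases before the start, and an EGR site. FOSL2 has an AP-1 site 4 bases after the start, JUND and MAFF a cyclic AMP response element (CRE) 200 and 54 bases before it, and SPRY2 a pair of EGR sites.
EGR1, chr5:138465229-138465528, plus strand: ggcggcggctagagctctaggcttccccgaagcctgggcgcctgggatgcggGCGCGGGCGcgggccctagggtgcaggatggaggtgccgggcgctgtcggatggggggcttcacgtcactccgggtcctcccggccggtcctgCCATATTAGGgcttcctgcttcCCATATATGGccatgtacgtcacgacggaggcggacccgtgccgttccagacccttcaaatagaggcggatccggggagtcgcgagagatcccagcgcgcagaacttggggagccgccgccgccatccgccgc
FOSL2, chr2:28392608-28392907, plus strand: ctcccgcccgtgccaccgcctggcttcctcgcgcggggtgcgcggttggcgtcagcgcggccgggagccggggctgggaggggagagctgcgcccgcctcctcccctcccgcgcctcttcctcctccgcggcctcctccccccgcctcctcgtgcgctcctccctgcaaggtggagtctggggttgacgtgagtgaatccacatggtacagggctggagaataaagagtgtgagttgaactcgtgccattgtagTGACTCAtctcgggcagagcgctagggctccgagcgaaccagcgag
JUND, chr19:18281573-18281872, minus strand: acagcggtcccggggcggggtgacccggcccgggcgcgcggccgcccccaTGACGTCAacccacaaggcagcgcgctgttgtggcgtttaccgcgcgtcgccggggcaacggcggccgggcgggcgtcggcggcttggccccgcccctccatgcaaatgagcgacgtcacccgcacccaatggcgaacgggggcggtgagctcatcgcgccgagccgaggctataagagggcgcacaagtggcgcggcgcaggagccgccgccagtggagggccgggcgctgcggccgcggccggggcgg
MAFF, chr22:38201744-38202043, plus strand: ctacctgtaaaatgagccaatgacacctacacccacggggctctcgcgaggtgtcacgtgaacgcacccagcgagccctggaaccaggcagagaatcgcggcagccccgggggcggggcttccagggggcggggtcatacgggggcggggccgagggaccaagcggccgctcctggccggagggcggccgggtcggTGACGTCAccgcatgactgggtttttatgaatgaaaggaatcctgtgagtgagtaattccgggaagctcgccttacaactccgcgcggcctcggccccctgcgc
SPRY2, chr13:80341077-80341376, minus strand: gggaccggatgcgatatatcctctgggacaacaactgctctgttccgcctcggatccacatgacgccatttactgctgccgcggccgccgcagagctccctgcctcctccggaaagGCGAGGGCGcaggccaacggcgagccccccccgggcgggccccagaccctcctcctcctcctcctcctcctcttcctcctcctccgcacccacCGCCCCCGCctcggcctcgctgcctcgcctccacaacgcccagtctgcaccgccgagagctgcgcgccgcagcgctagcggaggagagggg

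Searches covered both strands for the CArG box by name, the AP-1 site TGANTCA, the CRE TGACGTCA and the EGR site GCGNGGGCG, and shares rest on the first-listed window of each gene. None of the 17 matches in the first-listed windows of the listed genes overlapped another. A window was listed for 23 of the 31 genes above background. The CRE was found in 4 of the 23 (17.4%), namely JUND, MAFF, DUSP1 and EPHA2, against 1.98% of the 27305 first-listed windows of all genes. Those 27305 windows were not limited to genes on the array or above background, so the 2 sets are unlike in this respect. The EGR site was found in 6 (26.1%), against 9.28%. These 6 were EGR1, SPRY2, SPRY4, KLF2, KLF4 and KLF6. A CArG box was found in 1 (4.35%, against 1.29%) and an AP-1 site in 1 (4.35%, against 7.76%). A further 7 windows, at other starts of the listed genes, were left out of the shares, those of MAFF and SPRY2 among them. Of these, 1 of SPRED2 held 2 AP-1 sites and 1 of SPRY1 held an EGR site, and the rest held no match. The matches are a description of these windows and do not show that a factor binds there.

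The comparison asked whether the secreted milieu of CpG-treated mice left these genes at a different level in tumour cells from that of saline-treated mice. EGR1 had higher values in CpG ascites, and FOSB, PHLDA1, FOSL2 and SPRY2 had lower ones, but none of the 31 genes passed limma's test over all probes after Benjamini-Hochberg adjustment. The smallest adjusted p among them was 0.264, for FOSB. Over all 9211 genes kept, 0 also passed (0%). Of the 31 genes, 5 (16.1%) had an unadjusted p under 0.05, 1 with higher and 4 with lower values, beside 11.6% of all genes, of which 6.66% were higher and 4.92% lower. The groups did not overlap in 7 of the 31 genes (22.6%), 2 higher and 5 lower, beside 20.4% of all genes, 11.1% higher and 9.30% lower. The shares over both directions were thus near the background, and no gene of the list was called. In such bulk RNA, fewer cells of a kind and less RNA per cell cannot be told apart.

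Without CpG ascites replicate 1, 0 of the 31 genes passed after adjustment beside 0.0977% of all genes, and 5 had an unadjusted p under 0.05, 2 higher and 3 lower, beside 13% of all genes, 6.25% higher and 6.74% lower. The groups then did not overlap in 11 genes, 3 higher and 8 lower, beside 30.9% of all genes, 16% higher and 14.9% lower. The median log2 change of the 31 genes was 0.04 over all arrays and -0.08 without this array, against 0.01 for all genes in both cases, so the median of the list has no settled sign. The plot of fitted changes sets the values with and without that array side by side.

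**Figure D1:**
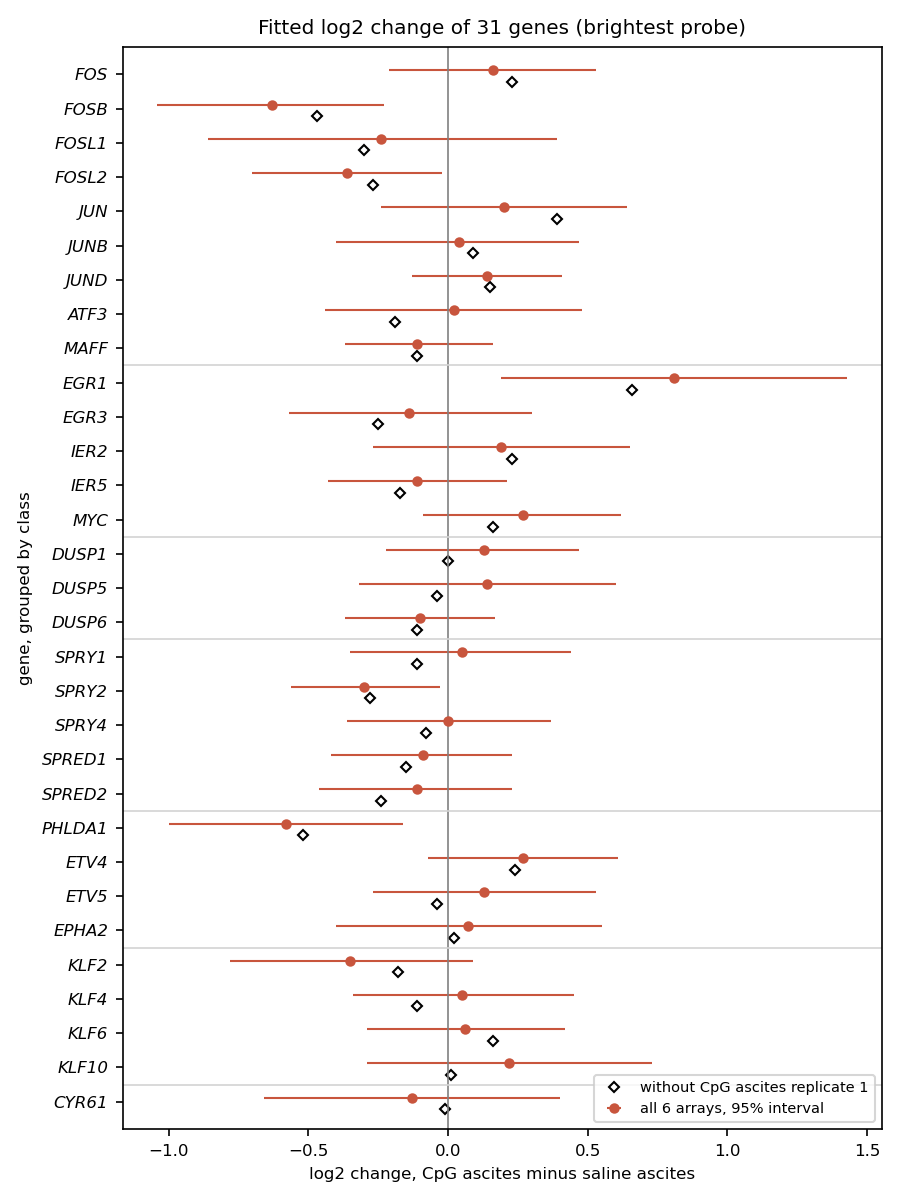
Fitted log2 change of the 31 genes above background, CpG ascites minus saline ascites, with its 95% interval over all 6 arrays (filled circles) and the estimate without CpG ascites replicate 1 (open diamonds). The intervals of EGR1, FOSB, PHLDA1, FOSL2 and SPRY2 lie on one side of 0, with no adjustment for the number of genes.

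The AP-1 factors are dimers of FOS and JUN proteins, joined here by the related leucine zipper factors ATF3 and MAFF, and all 9 genes of this class were above background. FOSB, a FOS family member known for its induction by growth factors and by neuronal activity, read 7.10, 7.37 and 7.16 in the 3 saline arrays and 6.24, 6.73 and 6.75 in the 3 CpG arrays. Every CpG array lay below every saline array, with replicate 1 the lowest, where the probe was not above background. Its log2 change was -0.63 ± 0.17 (SE), with an adjusted p of 0.264 in limma. It was smaller, at -0.35, both without background correction and with the authors' processed values, and -0.47 without CpG ascites replicate 1.

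FOSL2, which encodes the FOS-related factor FRA2 and whose promoter window holds the AP-1 site shown above, read 8.26, 8.06 and 8.0 in saline ascites and 7.58, 7.94 and 7.72 in CpG ascites. All CpG arrays were again lower, but replicate 2 by only a small margin. The log2 change was -0.36 ± 0.15 (SE), with an adjusted p of 0.372. It ran from -0.46 to -0.26 over the alternatives, and was -0.27 ± 0.14 without CpG ascites replicate 1. Its unadjusted p was under 0.05 in 5 of 18 settings, the main fit among the 5. FOS itself, the prototype of the class, read 8.12, 7.87 and 8.17 in saline ascites and 8.07, 8.10 and 8.47 in CpG ascites. The groups overlapped, only CpG ascites replicate 3 was above the saline range, and the 95% interval of the change was -0.21 to 0.53. FOSL1, the FRA1 gene, differed most between CpG arrays, at 9.28, 8.52 and 9.65, around saline values of 9.40, 9.45 and 9.29.

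JUN, the main transactivating partner of FOS, read 9.80, 9.79 and 9.59 in saline ascites and 9.55, 10.02 and 10.22 in CpG ascites. CpG ascites replicates 2 and 3 were above the saline range and replicate 1 below it. Its log2 change was 0.20 ± 0.19 (SE) over all arrays, 0.39 ± 0.14 without CpG ascites replicate 1 (adjusted p 0.253), 0.13 without saline ascites replicate 3 and 0.06 without CpG ascites replicate 3. JUND, the JUN family member expressed in resting cells, read 13.78, 13.88 and 13.82 in saline ascites and 13.95, 13.92 and 14.04 in CpG ascites. The groups did not overlap, yet the log2 change was only 0.14 ± 0.12 (SE), with an adjusted p of 0.616. JUNB had a log2 change of 0.04 ± 0.19, with CpG arrays on both sides of the saline range.

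MAFF, a small MAF factor without a transactivation domain, read 8.76, 8.74 and 8.76 in saline ascites and 8.66, 8.71 and 8.57 in CpG ascites. The groups were apart because the saline arrays were nearly equal, and the log2 change of -0.11 ± 0.11 (SE) was -0.01 with median scaling. The median change of all genes was 0.093 with that scaling, against 0.01 in the main fit. A second MAFF probe had -0.01 ± 0.22, with overlapping groups. ATF3, a stress-induced repressor and activator of the ATF family, read 10.27, 10.29 and 10.07 in saline ascites and 10.66, 9.98 and 10.05 in CpG ascites. Replicate 1 was above the saline range and the other CpG arrays were just below it, so the log2 change of 0.02 ± 0.20 became -0.19 ± 0.13 without replicate 1. In the class as a whole, 5 genes had values above and 4 below the saline mean, with a median log2 change of 0.02.

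**Figure D2:**
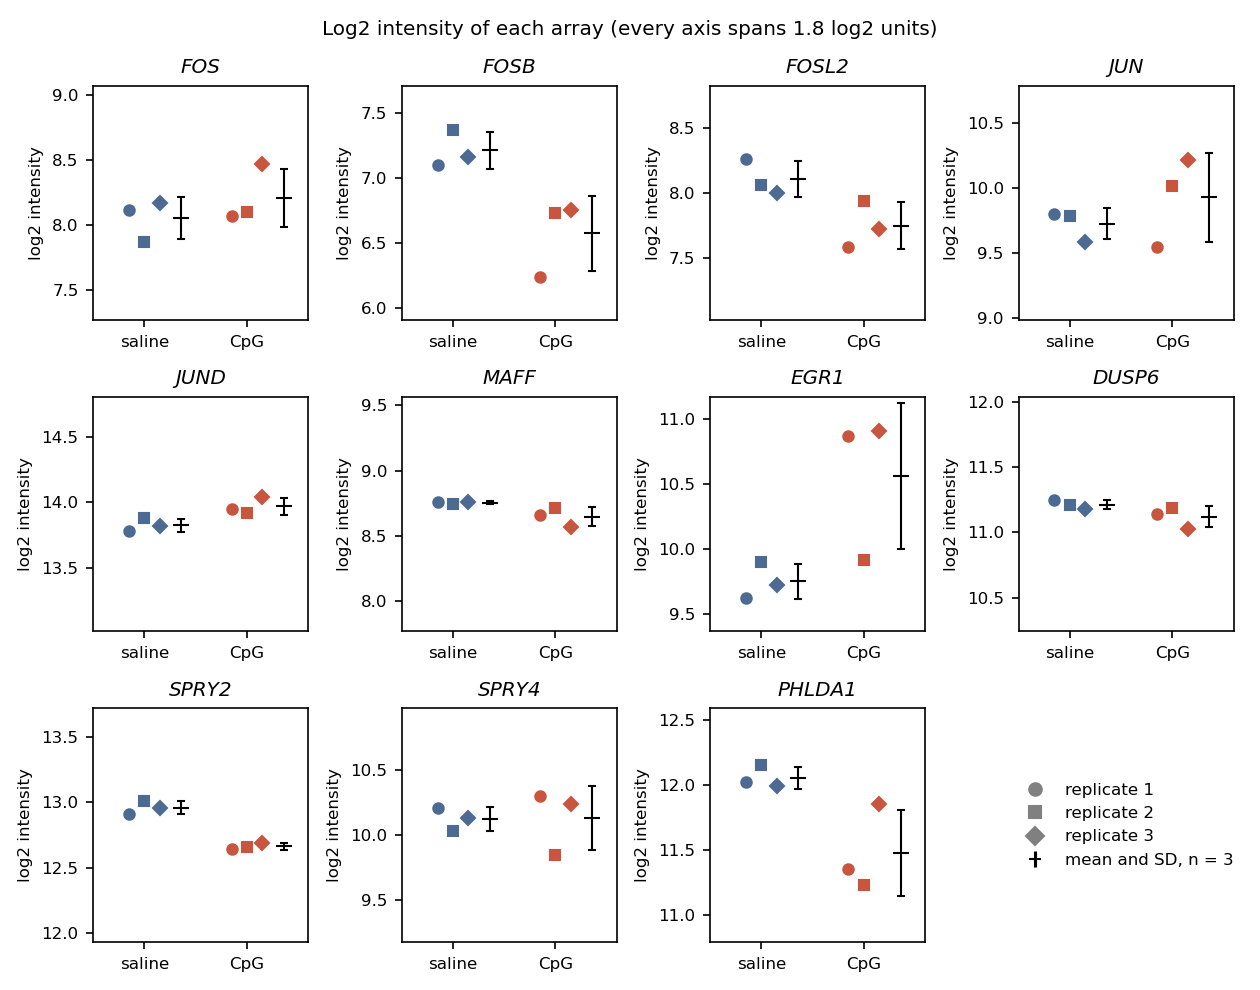
Log2 intensity of each array for the genes whose groups did not overlap or whose unadjusted p was under 0.05, and for FOS, JUN, DUSP6 and SPRY4. Symbols mark the replicate, and bars give the mean and SD of 3 arrays. Every panel spans the same number of log2 units but is centred on its own gene, so heights do not compare between panels. EGR1 shows CpG ascites replicates 1 and 3 well above the saline arrays and replicate 2 next to them.

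The EGR proteins are zinc finger factors induced through SRF and its ETS partners, and EGR1 is the standard transcript marker of ERK signalling. EGR1 read 9.63, 9.90 and 9.73 in saline ascites, and 10.87, 9.92 and 10.91 in CpG ascites. CpG ascites replicates 1 and 3 thus lay more than 1 log2 unit above the saline mean, at 1.12 and 1.15, while replicate 2 was at 0.16, level with the highest saline array. The log2 change was 0.81 ± 0.27 (SE), with a 95% interval of 0.19 to 1.43 and an adjusted p of 0.301. It was the largest positive change of the 31 genes, and it ran from 0.59 to 1.13 over the alternatives, the highest without CpG ascites replicate 2. With 1 EGR1 probe on the array, no second probe gives a check.

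Of the other genes of this class, only MYC was likewise higher on CpG ascites replicates 1 and 3 than on any saline array. EGR3, a relative of EGR1, read 7.23, 6.69 and 7.16 in saline ascites and 7.10, 6.69 and 6.86 in CpG ascites, with a log2 change of -0.14 ± 0.19 (SE). IER2, a small nuclear immediate early protein, read 6.84, 6.62 and 6.85 against 6.88, 7.35 and 6.64, and was highest on CpG ascites replicate 2, where EGR1 was lowest of the CpG arrays. IER5, a relative of IER2, had -0.11 ± 0.14. MYC, the growth-promoting transcription factor, read 11.16, 11.28 and 11.18 in saline ascites and 11.69, 11.22 and 11.52 in CpG ascites on its brightest probe. Replicate 2 lay within the saline range. Its log2 change was 0.27 ± 0.15, or 0.16 ± 0.14 without replicate 1. A second MYC probe had 0.13 ± 0.12, and its groups did not overlap.

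DUSP proteins remove phosphate from MAP kinases and so close the feedback loop. DUSP5 and DUSP6 act on ERK, and DUSP1 acts also on the stress kinases p38 and JNK. Only these 3 of the 7 DUSP genes were above background often enough to be tested. DUSP6, the cytoplasmic ERK phosphatase, read 11.25, 11.21 and 11.18 in saline ascites and 11.14, 11.19 and 11.03 in CpG ascites, so the groups overlapped. The log2 change was -0.10 ± 0.12 (SE), with a 95% interval of -0.37 to 0.17, and a second probe had 0.05 ± 0.15. This interval does not include a doubling or a halving of the transcript.

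DUSP5, the nuclear ERK phosphatase, read 13.50, 13.60 and 13.65 in saline ascites and 14.07, 13.31 and 13.78 in CpG ascites. The CpG arrays fell on both sides of the saline range, replicates 1 and 3 above it and replicate 2 below. The same placing held for DUSP1, at 11.43, 11.47 and 11.40 against 11.82, 11.38 and 11.49. Their log2 changes were 0.14 ± 0.20 and 0.13 ± 0.15 (SE), and -0.04 ± 0.16 and 0.00 ± 0.12 without CpG ascites replicate 1. DUSP4, DUSP7 and DUSP10 were not above background on any array. DUSP2, a phosphatase typical of lymphocytes, was above background on 2 saline arrays and no CpG array, at 6.67, 6.66 and 6.08 against 6.48, 5.83 and 6.29, which was too few arrays for the test.

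Sprouty and SPRED proteins inhibit the step from receptor to RAF, and all 5 genes were above background. SPRY2 read 12.91, 13.01 and 12.96 in saline ascites and 12.64, 12.66 and 12.69 in CpG ascites. The CpG arrays were tightly grouped below the saline arrays, with an SD of 0.03 against 0.05. The log2 change was small, at -0.30 ± 0.11 (SE) with a 95% interval of -0.56 to -0.03, and its adjusted p was 0.355. It ran from -0.32 to -0.22 over the alternatives, and was -0.28 ± 0.12 without CpG ascites replicate 1. Of the 31 genes, SPRY2 was the only one at an unadjusted p under 0.05 whose CpG arrays varied less than its saline arrays.

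SPRY4 showed no such separation. It read 10.21, 10.03 and 10.13 in saline ascites and 10.30, 9.85 and 10.24 in CpG ascites, with replicates 1 and 3 above and replicate 2 below the saline range. The log2 change was 0.00 ± 0.16 (SE), with a 95% interval of -0.36 to 0.37. A dimmer SPRY4 probe, above background on 4 arrays, had -0.59 ± 0.44 and was lowest on CpG ascites replicate 1, at 5.32 against 6.50 to 7.40 on the other arrays. SPRY1 had 0.05 ± 0.17 and, on a second probe, 0.29 ± 0.24, and both probes were highest on CpG ascites replicate 1. SPRED1 and SPRED2, which bind RAS and RAF, had -0.09 ± 0.14 and -0.11 ± 0.15, and SPRED2 had -0.24 ± 0.12 without that array.

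**Figure D3:**
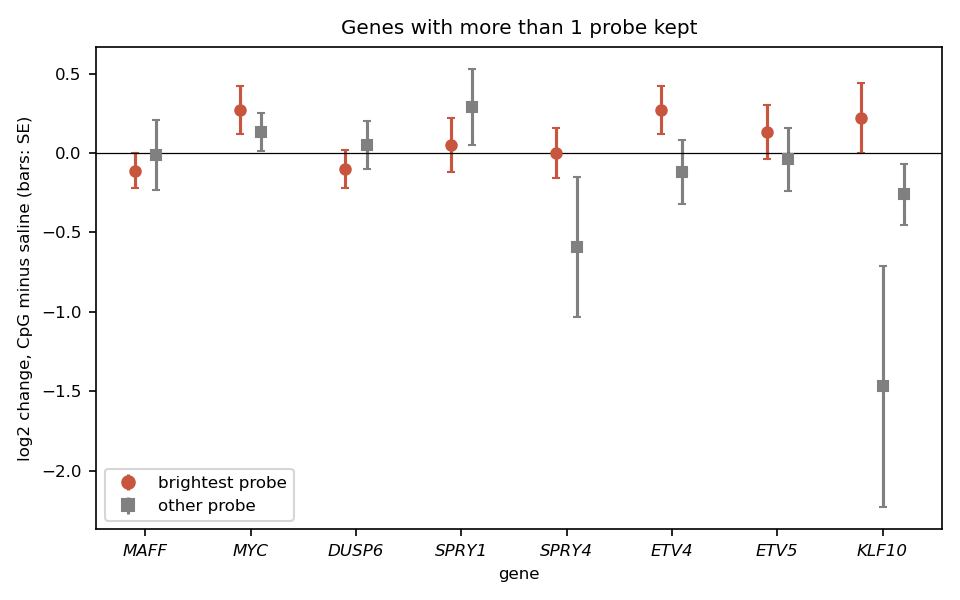
Log2 change with SE for each kept probe of the 8 genes that have more than 1. In 5 of the 8 genes (DUSP6, SPRY4, ETV4, ETV5 and KLF10) the probes lie on both sides of 0, and only in MAFF, MYC and SPRY1 do all kept probes share a sign.

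Other outputs of ERK signalling were PHLDA1, the ETS factors ETV4 and ETV5 and the receptor EPHA2. PHLDA1, a pleckstrin homology protein that can blunt receptor tyrosine kinase and AKT signalling, read 12.02, 12.15 and 11.99 in saline ascites and 11.35, 11.23 and 11.85 in CpG ascites. All CpG arrays were lower, replicate 3 by the least. The log2 change was -0.58 ± 0.18 (SE), with a 95% interval of -1.0 to -0.16 and an adjusted p of 0.284. It ran from -0.77 to -0.46 over the alternatives, and was -0.52 ± 0.19 without CpG ascites replicate 1. ETV4 and ETV5, which act as transcriptional effectors of ERK, had 0.27 ± 0.15 and 0.13 ± 0.17 on their brightest probes, and -0.12 ± 0.20 and -0.04 ± 0.20 on second probes. EPHA2, an ephrin receptor gene induced by ERK, had 0.07 ± 0.20. PHLDA1 and EGR1, both known as ERK targets, had values in opposite directions, and neither passed after adjustment. The part of ERK in these values was not tested.

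The KLF genes encode zinc finger factors that answer to growth factors, shear or TGF-beta, and all 4 were above background. KLF2 read 9.23, 9.35 and 9.17 in saline ascites and 8.57, 9.25 and 8.89 in CpG ascites, with replicates 1 and 3 below the saline range and replicate 2 within it. Its log2 change was -0.35 ± 0.18 (SE), with an adjusted p of 0.468, and -0.18 ± 0.15 without CpG ascites replicate 1. KLF4 had 0.05 ± 0.17 and KLF6 0.06 ± 0.15. KLF10, a TGF-beta-inducible early gene, had 0.22 ± 0.22 on its brightest probe, which read 8.66, 8.55 and 8.32 in saline ascites against 9.15, 8.32 and 8.73 in CpG ascites.

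Other KLF10 probes did not follow it. A second read 8.53, 8.55 and 8.07 in saline ascites and 4.91, 7.68 and 8.15 in CpG ascites, so CpG ascites replicate 1 was at background on that probe while it was the highest array on the brightest. The change at this probe was -1.47 ± 0.76 (SE), the largest in size among the 40 kept probes, with an adjusted p of 0.452. Another probe, above background on 4 arrays, had -0.26 ± 0.19. The cause of the gap between probes on that array was not tested.

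CYR61 and CTGF, now named CCN1 and CCN2, encode secreted matrix-associated proteins and are induced both by SRF with its MRTF cofactors and by YAP. CYR61 read 11.48, 11.50 and 11.30 in saline ascites and 11.06, 11.01 and 11.83 in CpG ascites. CpG ascites replicates 1 and 2 were below the saline range and replicate 3 above it, and the log2 change of -0.13 ± 0.23 (SE) was -0.40 without replicate 3, -0.01 without replicate 1 and 0.02 without replicate 2. Both CTGF probes were not above background on any array.

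Array by array, the 3 CpG samples differed among themselves over these genes. On CpG ascites replicate 1, 14 of the 31 genes lay above all saline arrays and 10 below, beside 42.4% and 34.5% of all genes. On replicate 2, 4 lay above and 16 below, beside 32.6% and 27.8% of all genes, and the median difference from the saline mean was -0.12 against 0.02 for all genes. On replicate 3 the numbers were 15 and 12, beside 35.0% and 34.7%. The 4 genes above the saline range on replicate 2 were EGR1, JUND, IER2 and JUN. Those above it on replicates 1 and 3 but not 2 were 6 genes, namely MYC, DUSP1, DUSP5, SPRY4, ETV4 and KLF10, which is 19.4% beside 9.96% of all genes. Another 6 were above it on replicate 3 alone, namely FOS, FOSL1, JUNB, EPHA2, KLF6 and CYR61, beside 9.07% of all genes. A further 5, namely ATF3, SPRY1, SPRED2, ETV5 and KLF4, were above it on replicate 1 alone (16.1%), beside 13.4% of all genes. Those below it on replicate 2 alone were also 6, namely JUNB, DUSP1, DUSP5, SPRY4, ETV5 and EPHA2, beside 7.36% of all genes. These groupings rest on the brightest probe of each gene, were seen in the data and carry no test. Of the genes above the saline range on replicates 1 and 3 but not 2, several differed on other kept probes. There MYC was above that range on all 3 CpG arrays, ETV4 on replicate 3 alone, and SPRY4 and KLF10 on none. A second SPRY1 probe was above it on replicates 1 and 3, and a second ETV5 probe on none. The SD among CpG arrays exceeded that among saline arrays in 27 of the 31 genes, beside 76.8% of all genes, and its median was 0.27 against 0.11 for the saline arrays. Over all genes these medians were 0.22 and 0.12, so CpG arrays were the more spread there too.

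**Figure D4:**
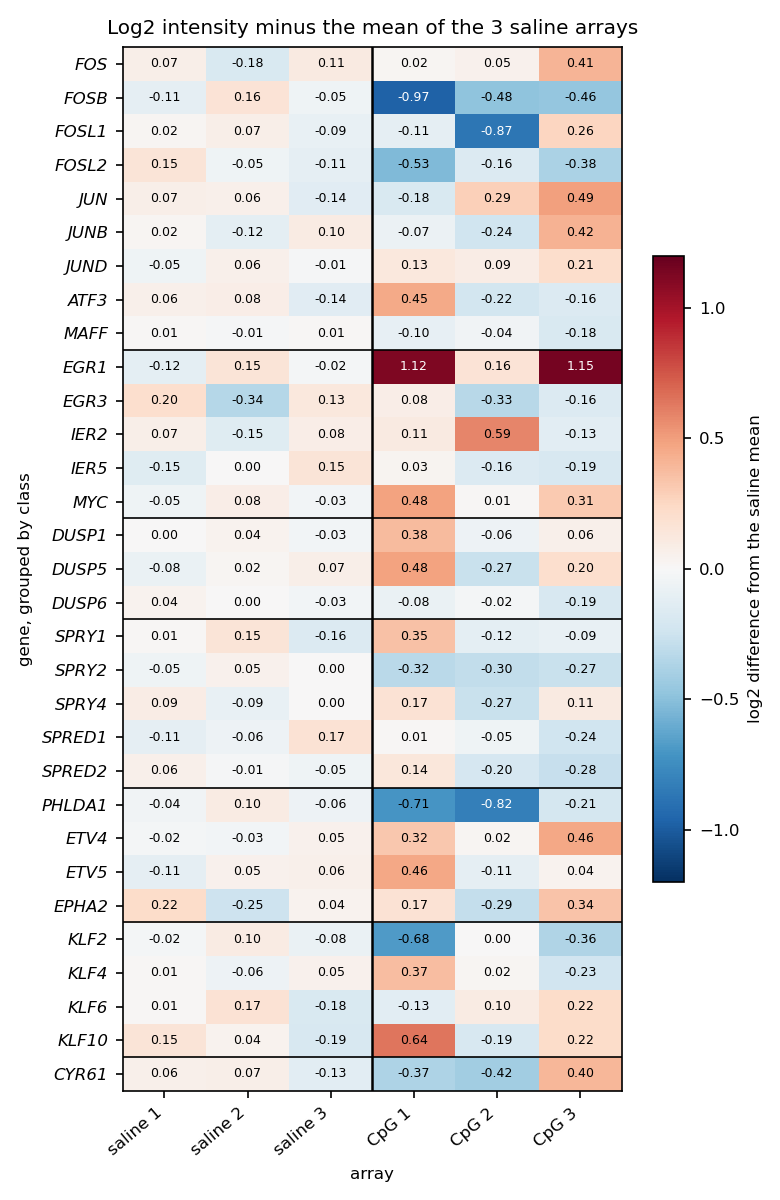
Log2 intensity of the 31 genes on each array as the difference from the mean of the 3 saline arrays, grouped by class. Values are those of the brightest probe of each gene. EGR1 reaches 1.12 and 1.15 on CpG ascites replicates 1 and 3 and 0.16 on replicate 2. FOSB, FOSL2, SPRY2, PHLDA1, MAFF and DUSP6 are negative on all 3 CpG arrays, DUSP6 with groups that overlap.

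The kinases and factors upstream of these genes, and further immediate early genes, were taken from a separate list of 97 genes, of which 85 had a probe and 66 were above background often enough. None of the 66 passed after adjustment, with a smallest adjusted p of 0.193. An unadjusted p under 0.05 was reached by 17 genes (25.8%), 8 of them with higher and 9 with lower values, beside 11.6% of all genes. Without CpG ascites replicate 1 the number was 15 (22.7%), beside 13%. The median log2 change was 0.04, against 0.01 for all genes.

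In the cascade from receptor to ERK, 20 genes were measured, and 6 of them (30%) were at that threshold, beside 11.6% of all genes. Of these, 3 had higher and 3 lower values, beside 6.66% and 4.92% of all genes. EGFR, the epidermal growth factor receptor gene, read 9.37, 9.32 and 9.34 in saline ascites and 9.03, 8.86 and 8.99 in CpG ascites, a log2 change of -0.39 ± 0.12 (SE) with an adjusted p of 0.283. ERBB2, its partner receptor, had 0.36 ± 0.13. SOS1, the exchange factor that loads RAS, had 0.70 ± 0.20, and PTPN11, the phosphatase SHP2 that helps RAS activation, had -0.36 ± 0.12. PEA15, a cytoplasmic anchor of ERK, had the smallest p of the list, at 12.31, 12.30 and 12.14 against 11.74, 11.63 and 11.78. Its log2 change was -0.53 ± 0.12, with an adjusted p of 0.193. MKNK1, a kinase activated by ERK that phosphorylates the translation factor eIF4E, had 0.52 ± 0.12. The groups did not overlap in these 6 genes, nor in ARAF, a RAF kinase gene, at -0.33 ± 0.21, or RPS6KA1, the gene of an ERK-activated kinase, at 0.09 ± 0.11. These 8 genes are 40% of the 20, beside 20.4% of all genes. MAPK3, the ERK1 gene, had 0.00 ± 0.19, and MAP2K1, the MEK1 gene, had -0.06 ± 0.12.

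**Figure D5:**
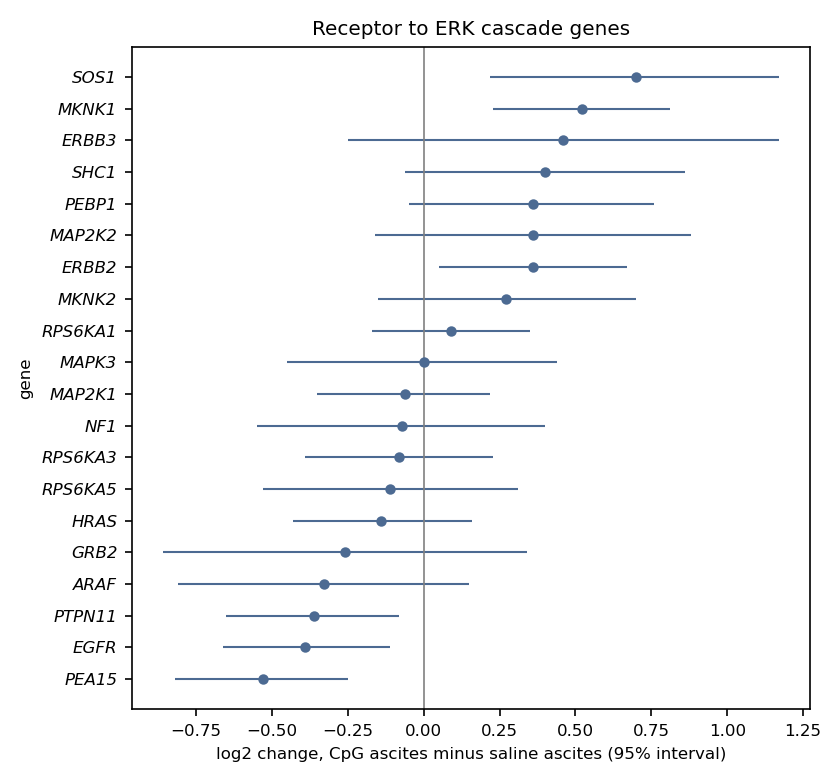
Log2 change, CpG ascites minus saline ascites, with its 95% interval for the 20 measured genes of the receptor to ERK cascade, ordered by size. PEA15, EGFR and PTPN11 have intervals below 0 and ERBB2, MKNK1 and SOS1 above 0, with no adjustment for the number of genes.

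Among the factors, ETS1, a target and partner of ERK signalling, had -0.60 ± 0.14 (SE) on its brightest probe and 0.07 ± 0.15 on a second. ELK4, an SRF partner, had -0.54 ± 0.16, with -0.26 ± 0.15 and -0.06 ± 0.16 on other probes. TIPARP, an immediate early gene for an ADP-ribosyltransferase, had -0.47 ± 0.13, and NUAK2, a kinase gene under YAP control, had 0.49 ± 0.13, with 0.20 ± 0.19 on a second probe. Adjusted p-values lay between 0.193 for ETS1 and 0.279 for ELK4. With each array left out in turn, the changes of the genes of the separate list named with values beyond 0.3 kept their signs. Without CpG ascites replicate 1, that of SOS1 was 0.47 and that of ARAF -0.10.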

How the data were processed

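RNA of IGROV-1 cells was profiled on 6 Illumina bead arrays; per the submitters' processing notes they were summarised with BeadStudio. The deposited probe intensity is non-normalized and comes with a detection p-value per probe and array, per the file headers. The authors' processed intensity, with equal quantiles on all arrays, served as an alternative (method not given in the sources used here).

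Intensities were corrected and quantile normalised with neqc of limma 3.58.1 (offset 16) in R 4.3.3. Probes with a detection p under 0.01 on at least 3 arrays were kept, 13713 of 48801. Symbols came from the platform annotation, updated by gene number; 28097 probes had 1 symbol, 13 several and 20691 none. The brightest probe stood for a gene. The group difference was fitted by lmFit and moderated by eBayes in limma, two-sided, adjusted by Benjamini and Hochberg over all kept probes at 0.05. An exact permutation test of 3 against 3 arrays cannot go below p = 0.1. The number of arrays limits the precision.

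The members, the related list and the markers were chosen with earlier results of these data known. Array values are given for genes with an unadjusted p under 0.05 or groups without overlap, and for FOS, JUN, EGR1, DUSP6 and SPRY4; other members described array by array were added after their values were seen. From the related list came the 8 genes with the smallest p and cascade genes with an unadjusted p under 0.05; MAPK3, MAP2K1, ARAF and RPS6KA1 were added after their values were seen.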

Additional observations from a re-analysis of the deposited data

How the results depend on the processing

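Alternatives numbered 17: another or no background correction, the authors' values, median scaling, a looser and a stricter probe filter, array weights, a mean-variance trend, a replicate block, omission of each array, the mean of a gene's probes, and an ordinary t-test per probe. In each of them 0 of the members and 0 of the related genes kept there passed after adjustment. Over all genes at most 9 passed, without CpG ascites replicate 1. The members kept were 36 with no filter on dim probes, 30 with probes detected on all 6 arrays, and otherwise 31. Members with an unadjusted p under 0.05 numbered 2 to 7, against 5 beside 11.6% of all genes. The 7 were found without CpG ascites replicate 2, beside 16.1% of all genes. The 2 were found without saline ascites replicate 1 or 2, beside 6.03% and 6.05%. The median log2 change of the members was 0.04, but -0.05 with array weights, and with 1 array omitted it lay between -0.08 (CpG ascites replicate 1) and 0.08 (CpG ascites replicate 2). SPRY4, at 0.0035, turned to -0.09 with array weights and to -0.29 with the mean of its probes, and ran from -0.08 to 0.14 with 1 array left out. Of the 31 members, 14 took both signs over these settings; the cause was not tested. Arrays of the same number did not deviate together, with correlations of -0.10, 0.01 and -0.02 for the 3 numbers. With the replicate block 0 members and 0 of all genes were called. At an unadjusted p under 0.05 there were 3 members, beside 9.41% of all genes, and the median of the members was 0.04. A block for chip or position was not run, because no column name states either. Dim probes such as those of FOSB and SOS1 lie near background, which limits the size of their changes.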
